A study of Mus musculus with 18 samples.

Results

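Expression of 10 naive pluripotency factors, *Nanog*, *Klf4*, *Klf2*, *Klf5*, *Esrrb*, *Tfcp2l1*, *Zfp42*, *Tbx3*, *Prdm14* and *Dppa3*, was followed across all 18 RNA-seq libraries of the *Kdm6a* KO study. The members were taken by gene symbol, and each of the 10 was found in every file among 24346 symbols and passed the filter on low values in both lines. *Tsix*-stop cells are hybrid female mouse ES cells (strain-129 × *cast*) with a transcriptional stop in *Tsix* on the strain-129 X chromosome, and every *Tsix*-stop library carried it, controls included. The cells were kept in LIF and serum on MEF feeders, which were depleted on gelatin before use. They were sampled at D0, as ES cells, and at D15 of differentiation, with 2 wt, 2 KO and 1 CRISPR control library on each day. For differentiation the methods describe embryoid bodies (EBs) formed without LIF until D7 and then plated on gelatin until D15. The D15 samples, cells grown on from plated EBs, are called EBs here for short. The KO deletion in *Kdm6a*, the gene of the H3K27 demethylase UTX, runs from within exon 2 to within exon 4, and the methods describe 2 homozygous KO clones that the labels do not assign to libraries. The CRISPR control is labelled only as a negative control, and the study describes its CRISPR control clones as treated with CRISPR/Cas9 but free of the deletion. E8 cells are a second hybrid female ES line (BL6 × *cast*), in which the *Kdm6a* promoter was deleted in a single clone, sampled at D7 and D15 with 2 wt and 2 KO libraries on each day.

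Naive pluripotency is the state of the pre-implantation epiblast, which mouse ES cells keep when LIF signals through STAT3. Signals reach the core factors OCT4 and SOX2 through a ring of transcription factors: *Klf4* and *Tfcp2l1* lie downstream of STAT3, *Esrrb* downstream of WNT through relief of TCF7L1 repression, and *Klf2* is held down by ERK. *Nanog* sits at the centre of the network, *Klf5* and *Tbx3* sustain self-renewal, *Prdm14* represses FGF signaling and de novo DNA methylation, and *Zfp42* (REX1) is the usual reporter of the naive state. *Dppa3* (STELLA) protects the maternal genome from demethylation and marks naive and germ cells. On exit from pluripotency these genes are switched off together.

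The *Tsix*-stop libraries held 51091148 to 68796172 counts. In the E8 KO libraries *Kdm6a* was at 0.00578 to 0.0319 TPM against 46.7 to 47.8 TPM in wt. In *Tsix*-stop KO cells, where the deletion removes few of the exons and the gene total therefore says little about it, replicate 1 had 57.0 TPM at D0 and 42.7 TPM at D15 and replicate 2 had 21.7 and 13.2 TPM, against 50.2 to 87.9 TPM in wt. The deposited data of both CRISPR controls carry the name of a further KO replicate although their labels call them negative controls. They are therefore kept out of the main comparisons and their values are given beside them. Replicate libraries of E8 differed by a median of 0.04 to 0.07 on the log2 scale and those of *Tsix*-stop by 0.15 to 0.21. The methods call the *Tsix*-stop wt libraries biological replicates and take the KO libraries from separate clones. For E8 they describe a single wt line and a single KO clone, at earlier days of differentiation than the labels give, so the E8 replicates may be technical and the E8 days named here are those of the labels. All p-values measure only the spread between these libraries. Markers of other cell types were summed to show which tissues were present. The 8 fibroblast markers summed to 2743 and 3087 TPM in *Tsix*-stop wt at D15 and to only 22.5 to 34.6 TPM in E8 wt at D7 and D15. Likewise 7 endoderm markers summed to 679 and 783 TPM in *Tsix*-stop wt at D15 and to 12.6 to 17.0 TPM in E8 wt. In undifferentiated *Tsix*-stop wt cells the same sums were 3.14 and 3.13 TPM for endoderm and 23.9 and 20.7 TPM for fibroblasts. The E8 wt libraries, labelled D7 and D15, thus held little RNA of these 2 lineages.

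The members lie on 7 chromosomes (mm10), and *Nanog* (chr6:122707489-122714633, plus strand) and *Dppa3* (chr6:122626410-122630272, plus strand) are neighbors in one pluripotency cluster. RefSeq promoters on GRCm38.p6, the build of mm10, were at hand for 6 members. They show how unlike the members are upstream of their start sites, and are shown because most members moved together. The windows of 250 bases before the start site are printed for 4 of them, with capitals marking GC boxes (GGGCGG), the KLF motif CCNCACCC and the octamer ATGCAAAT, on either strand.
*Klf4*, chr4:55532476-55532725, minus strand: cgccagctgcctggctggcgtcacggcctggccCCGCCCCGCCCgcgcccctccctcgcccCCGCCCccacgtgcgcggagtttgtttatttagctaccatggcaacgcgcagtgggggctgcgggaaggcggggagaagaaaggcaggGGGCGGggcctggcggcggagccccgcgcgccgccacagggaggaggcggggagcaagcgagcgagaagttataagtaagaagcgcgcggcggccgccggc
*Klf2*, chr8:72318812-72319061, plus strand: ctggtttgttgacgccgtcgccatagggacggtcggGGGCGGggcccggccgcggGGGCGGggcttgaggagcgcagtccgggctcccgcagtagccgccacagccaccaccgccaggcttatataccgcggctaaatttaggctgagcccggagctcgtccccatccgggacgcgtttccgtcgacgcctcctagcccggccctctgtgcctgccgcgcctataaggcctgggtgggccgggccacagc
*Zfp42*, chr8:43307010-43307259, minus strand: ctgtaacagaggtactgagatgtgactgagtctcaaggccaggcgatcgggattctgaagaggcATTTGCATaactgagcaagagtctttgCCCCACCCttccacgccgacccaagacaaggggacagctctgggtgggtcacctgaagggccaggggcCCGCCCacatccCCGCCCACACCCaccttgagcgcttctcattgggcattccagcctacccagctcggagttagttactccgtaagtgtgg
*Nanog*, chr6:122707239-122707488, plus strand: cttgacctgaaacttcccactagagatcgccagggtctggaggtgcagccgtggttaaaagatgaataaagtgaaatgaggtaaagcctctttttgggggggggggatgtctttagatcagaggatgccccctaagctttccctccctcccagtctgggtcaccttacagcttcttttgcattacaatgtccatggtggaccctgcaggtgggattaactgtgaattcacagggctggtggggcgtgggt

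The windows of *Klf4* and *Klf2* were rich in CpG, with 32 and 29 CpG and a GC content of 74.0% and 71.2%, against medians of 6 CpG and 52.4% over 32851 promoters. Those of *Zfp42* and *Nanog* had 9 and 3 CpG, and that of *Tfcp2l1* had 16. GC boxes numbered 4 in *Klf4*, 2 in *Klf2* and 2 in *Zfp42*, and 32.7% of all promoters held at least 1. *Zfp42* also held 2 KLF motifs (at -159 and -75) and 1 octamer (at -186), motifs found in 14.9% and 1.60% of promoters. Its GC box at -79 overlapped the KLF motif at -75. Each of the windows at the 2 start sites of *Esrrb* held 1 KLF motif. The ESRRB motif TCAAGGTCA and the STAT3 motif TTCCNGGAA, found in 0.387% and 0.913% of promoters, were not in any of these windows. A match is only a run of letters and says nothing of binding.

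Levels are given as TPM, which corrects for gene length. In undifferentiated *Tsix*-stop wt cells the members spanned more than a 10-fold range: *Nanog* (1275 ± 71.4 TPM, SD, n = 2) and *Zfp42* (1186 ± 150.5 TPM) were highest, followed by *Esrrb* (659 ± 112 TPM) and *Klf2* (610 ± 17.4 TPM). *Tfcp2l1* followed at 464 ± 135 TPM, *Klf4* at 252 ± 10.8 TPM and *Prdm14* at 221 ± 2.35 TPM. *Tbx3* (168 ± 19.0 TPM), *Dppa3* (146 ± 2.87 TPM) and *Klf5* (99.0 ± 18.5 TPM) were lowest. Among neighbors in this order the libraries of *Nanog* and *Zfp42*, and those of *Esrrb* and *Klf2*, overlapped, so that these pairs did not differ beyond their spread. *Nanog* ranked first by mean in all 10 groups of the 2 lines, although in wt D0 replicate 1 *Zfp42* (1292 TPM) exceeded it (1225 TPM). *Zfp42* was within the first 3 places in every group. *Prdm14* took the last place in every E8 group, at 18.0 to 49.1 TPM, whereas in *Tsix*-stop cells it ranked 7 at D0 and 8 at D15. The plot of levels by library shows all values.

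**Figure D1:**
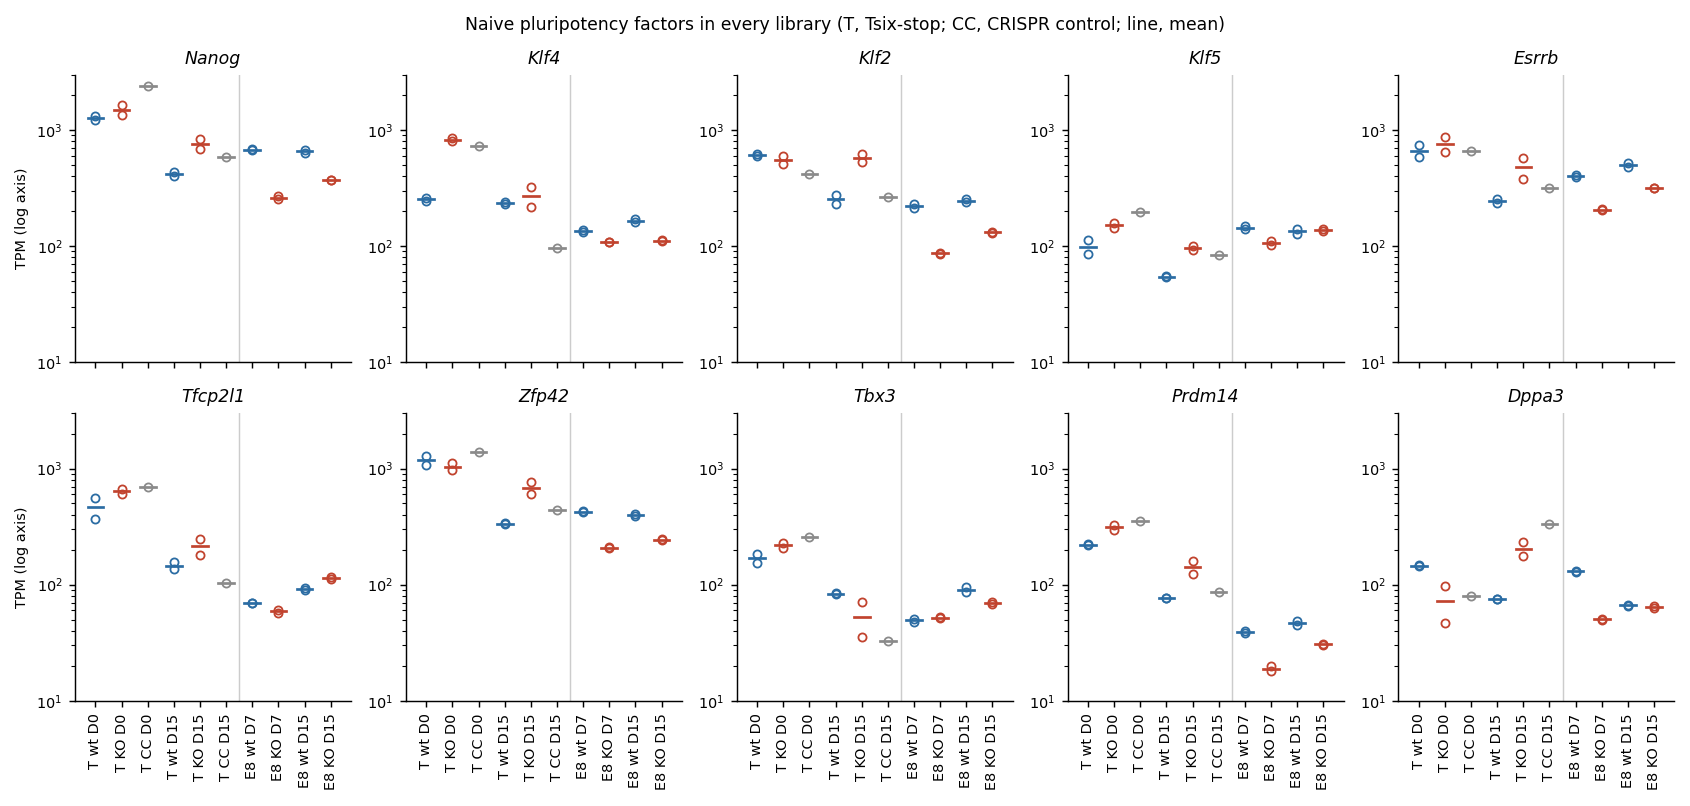
TPM of each member (log axis) in every library, by line, genotype and day; circles are libraries, lines are group means, blue is wt, red is KO and grey is the CRISPR control. *Nanog* has the highest mean in every group, and most members are lower at D15 than at D0 in *Tsix*-stop wt cells. In E8 cells the KO libraries lie below wt for *Nanog*, *Klf4*, *Klf2*, *Esrrb*, *Zfp42*, *Prdm14* and *Dppa3* on both days, narrowly so for *Dppa3* at D15.

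From D0 to D15 9 of 10 naive factors fell in *Tsix*-stop wt cells, and *Klf4* was not called. *Zfp42* fell from 1292 and 1079 TPM at D0 to 330.4 and 341 TPM at D15. *Nanog* went from 1225 and 1326 TPM to 432 and 401 TPM. *Klf2*, whose protein can stand in for KLF4 and KLF5 in self-renewal, was at 622 and 598 TPM at D0 and at 231 and 276 TPM at D15. In contrast *Klf4* was at 244 and 260 TPM at D0 and still at 238 and 231 TPM at D15, so that the groups lay close together although they did not overlap. The CRISPR control, with 1 library a day, went from 732 to 95.8 TPM of *Klf4*. Calls on *Tsix*-stop counts were made by edgeR with an FDR of at most 0.1 and at least a 2-fold change. Among all 13121 genes tested 13.6% were called lower and 24.2% higher. Log2 fold changes ranged from -1.99 ± 0.18 (SE) for *Zfp42* (FDR 2.41e-05) through -1.83 for *Tfcp2l1*, -1.78 for *Nanog*, -1.69 for *Prdm14* and -1.60 for *Esrrb* to -1.02 ± 0.13 for *Klf5* (FDR 0.000179). *Klf4* had -0.27 ± 0.18 (FDR 0.214), but was called lower when the control was counted as wt (-1.29, FDR 0.0318) or took the place of wt (-3.04, FDR 0.00405). The median over the 10 members was -1.52, beside 0.02 over all genes tested. TPM and the fitted values are scaled differently, and here the TPM ratio exceeded the fitted value by a median of 0.17 on the log2 scale. The call of *Klf5* stood at the 2-fold border and was lost without wt D0 replicate 2 or without wt D15 replicate 1, and with the stricter filter of 2.5 CPM in 4 libraries (-0.995). In bulk EBs a smaller share of naive cells and less RNA per cell cannot be told apart.

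At D0, before differentiation, 2 of 10 members were called between *Kdm6a* KO and wt cells, 1 in each direction. *Klf4*, the STAT3 target, was at 795 and 853 TPM in KO against 244 and 260 TPM in wt, and *Dppa3* was at 98.2 and 46.5 TPM in KO against 144 and 148 TPM in wt. Both KO libraries lay outside the wt range for both genes, but the 2 KO libraries differed for *Dppa3*. *Klf4* rose by 1.59 ± 0.19 on the log2 scale (FDR 0.00205) and *Dppa3* fell by 1.12 ± 0.30 (FDR 0.0429). Of all genes tested 3.11% were called higher and 5.01% lower. *Klf5* passed the FDR without reaching 2-fold (0.50 ± 0.13, FDR 0.0434), with 158 and 143 TPM in KO and 85.9 and 112 TPM in wt. The other 7 members did not pass the test. *Prdm14* (0.37), *Tfcp2l1* (0.35) and *Tbx3* (0.26) had positive values and *Klf2* (-0.26) and *Zfp42* (-0.31) negative ones. *Nanog* (0.11) and *Esrrb* (0.09) lay nearest to 0, and without KO D0 replicate 1 both were below it. The call of *Dppa3* was lost without either wt D0 library, at an FDR of 0.151 without replicate 1 and 0.111 without replicate 2, and without KO D0 replicate 2 its log2 fold change was -0.66 (FDR 0.0809), while without KO D0 replicate 1 it was -1.78. Fibroblast markers summed to 8.73 and 10.2 TPM in KO and 23.9 and 20.7 TPM in wt at D0, after the depletion of feeders that the methods describe, and their part in these values was not tested.

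At D15, 3 of 10 naive factors were called higher in KO than in wt EBs and none was called lower. *Klf2* was at 618 and 528 TPM in KO, near its level in ES cells, against 231 and 276 TPM in wt. *Zfp42* was at 766 and 598 TPM in KO against 330.4 and 341 TPM in wt. *Dppa3* reached 177 and 231 TPM in KO against 75.3 and 75.9 TPM in wt. The KO and wt libraries of these 3 genes did not overlap, nor did those of *Nanog*, *Klf5*, *Esrrb*, *Tfcp2l1* and *Prdm14*, which were also higher in KO. The members called by edgeR were *Dppa3* (1.43 ± 0.30, FDR 0.00828), *Klf2* (1.18 ± 0.16, FDR 0.00119) and *Zfp42* (1.03 ± 0.18, FDR 0.00338), where 3.83% of all genes were called higher and 11.1% lower. At the FDR alone 8 of 10 members were higher, where the same held for 20.6% of all genes. The 5 that passed it under 2-fold were *Esrrb* (0.98), *Prdm14* (0.89), *Nanog* (0.88), *Klf5* (0.83) and *Tfcp2l1* (0.58). *Klf4*, at 324 and 215 TPM in KO and 238 and 231 TPM in wt, overlapped between the genotypes (0.21, FDR 0.396). *Tbx3* was at 70.6 and 35.3 TPM in KO and 82.9 and 84.5 TPM in wt (-0.65, FDR 0.102).

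Several of these D15 values lay close to the 2-fold border. The call of *Zfp42* was lost without KO D15 replicate 1 or without wt D15 replicate 1, and on the count of the *cast* genome (0.995) or of either genome (0.993). Without KO D15 replicate 2, 6 members were called, *Nanog*, *Esrrb* and *Prdm14* being added, and without wt D15 replicate 1, 2 were called. *Esrrb* was also called with no filter on low counts (1.06) and without KO D0 replicate 2 or wt D15 replicate 2, and *Tbx3* was called lower without KO D15 replicate 1 (-1.25). In the same libraries the endoderm markers summed to 40.3 and 29.4 TPM in KO against 679 and 783 TPM in wt, and the fibroblast markers to 221 and 278 TPM against 3087 and 2743 TPM. All 7 endoderm markers and 7 of 8 fibroblast markers were called lower in KO, as were the 5 of 6 cardiac markers that were tested, which summed to 44.9 and 33.5 TPM in KO against 129.6 and 165 TPM in wt. Germ cell markers, like *Dppa3*, were higher in KO at D15. They summed to 349 and 379 TPM in KO against 163 and 157 TPM in wt, and 3 of the 5 tested were called higher both in KO at D15 and in the interaction of KO and day, *Dnd1* (2.13), *Prdm1* (1.53) and *Ddx4* (1.05). In the control at D15 the germ cell sum was 280 TPM and the cardiac sum 28.8 TPM. At D0 the germ cell sum was 205 to 264 TPM in KO, 168 to 199 TPM in wt and 529 TPM in the control. *Dppa3* was lower in KO and in the control than in wt on that day. The part of these shifts in the levels of the naive factors was not tested.

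**Figure D2:**
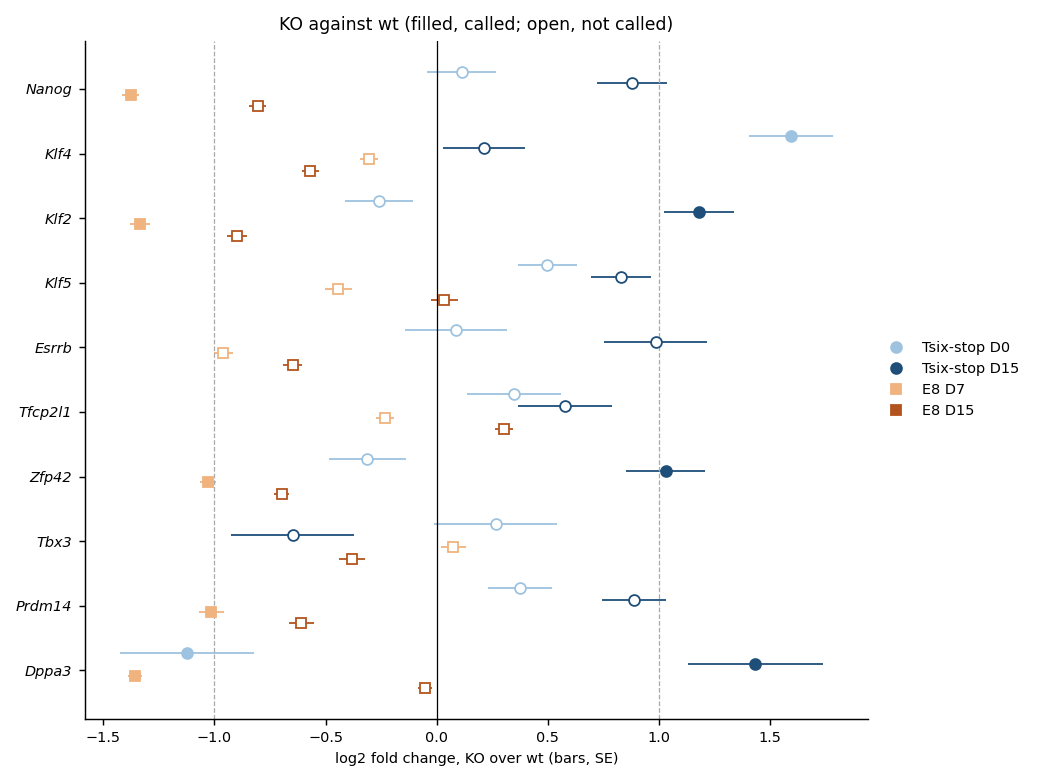
Log2 fold change of KO over wt for each member in the 4 comparisons, with SE; filled symbols were called, open symbols were not, and dashed lines mark 2-fold. At D15 the *Tsix*-stop values (dark circles) lie right of 0 for all members but *Tbx3*, although *Klf4* overlaps between the genotypes, while the E8 values at D7 and D15 (squares) lie left of 0 for most.

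Between D0 and D15 fewer members were called lower in KO than in wt cells. *Klf2* had a log2 fold change of 0.01 ± 0.15 (FDR 0.97), *Zfp42* was at -0.65 and *Esrrb* at -0.70, and both passed the FDR without reaching 2-fold, as did *Klf5* (-0.69). *Tbx3* (-2.08), *Klf4* (-1.65), *Tfcp2l1* (-1.61), *Prdm14* (-1.17) and *Nanog* (-1.02) were called lower, 5 of 10 members where 7.66% of all genes were. *Dppa3* was called higher (1.44 ± 0.30, FDR 0.00361), in the direction of 20.0% of all genes. *Klf4* thus fell in KO and was not called in wt, though it also went down in the CRISPR control, and its KO and wt libraries overlapped at D15. The call of *Nanog* was lost with the stricter filter and without KO D0 replicate 1, wt D15 replicate 1 or KO D15 replicate 2, that of *Prdm14* without KO D15 replicate 2, and that of *Dppa3* without KO D0 replicate 2 (0.98), while *Esrrb* was called without KO D15 replicate 1 (-1.07).

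The difference between the genotypes in their change from D0 to D15 was tested as the interaction of KO and day. *Dppa3* had the largest value (2.56 ± 0.43, FDR 0.00536), since it fell with differentiation in wt and rose in KO. It also rose in the CRISPR control, from 80.3 to 335 TPM. With the control added to wt the value was 1.24 (FDR 0.444) for *Dppa3* and -0.38 (FDR 0.784) for *Klf4*. Both changed sign with the control in place of wt. *Klf2* (1.44, FDR 0.00379) and *Zfp42* (1.34, FDR 0.00769) were also called higher and *Klf4* lower (-1.38, FDR 0.00856). Among all genes 6.62% were called higher and 10.5% lower. *Nanog* (0.77), *Esrrb* (0.90) and *Prdm14* (0.51) passed the FDR under 2-fold. *Tbx3* (-0.91, FDR 0.122), *Klf5* (0.33) and *Tfcp2l1* (0.23) did not. Without KO D15 replicate 1 *Tbx3* was called (-1.51), and *Esrrb* was called without KO D15 replicate 2 (1.21) or without the first replicate of wt or KO at D0.

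**Figure D3:**
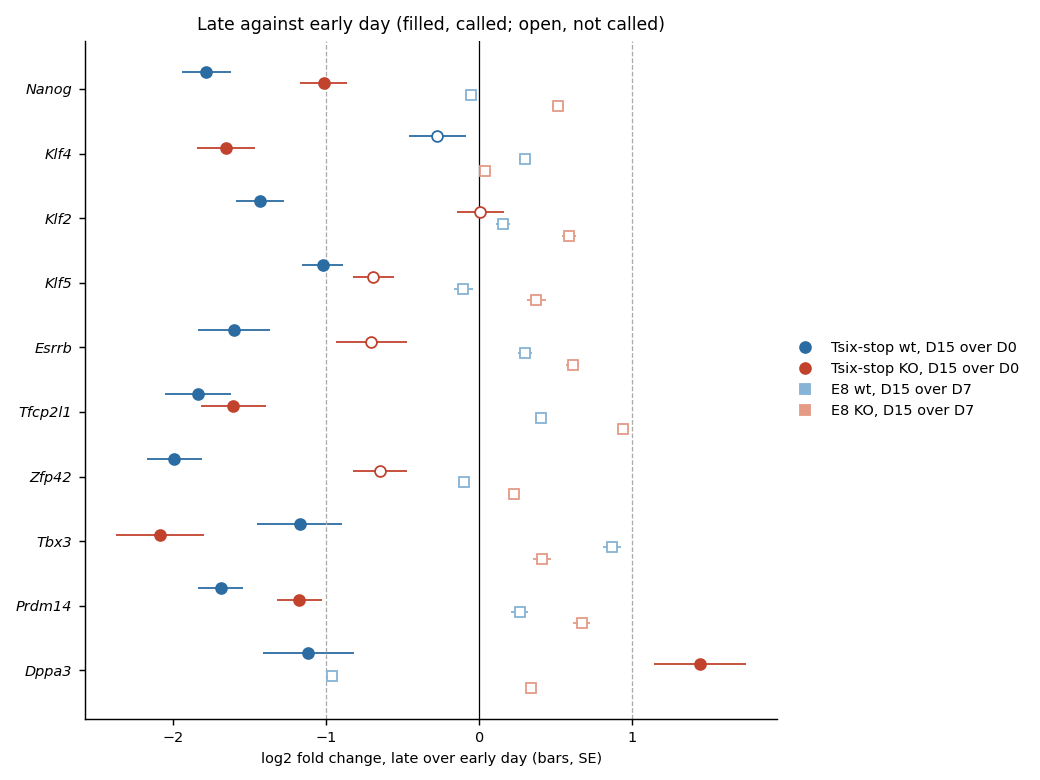
Log2 fold change of the late over the early day for each member in wt and KO cells, D15 over D0 in *Tsix*-stop (circles) and D15 over D7 in E8 (squares), with SE; filled symbols were called. In *Tsix*-stop wt cells 9 of 10 members are called lower, in KO cells *Klf2* stays at 0 and *Dppa3* lies on the other side, and no E8 value is called.

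The CRISPR control, 1 library on each day and thus without a replicate check, did not resemble wt in several members. At D0 its *Klf4* was at 732 TPM, near the 795 and 853 TPM of KO and far from wt. Its *Dppa3* (80.3 TPM) lay between the KO libraries, and its *Nanog* (2384 TPM) and *Prdm14* (354 TPM) lay above all wt and KO libraries. On the log2 scale 8 of 10 members were nearer to the KO mean at D0, and 4 of 10 at D15. At D15 *Dppa3* in the control (335 TPM) exceeded both KO libraries and *Tbx3* (32.5 TPM) lay below them, while *Klf4* (95.8 TPM) and *Tfcp2l1* (104 TPM) lay below every wt and KO library. *Klf2* (266 TPM) was within the wt range and *Zfp42* (436 TPM) and *Esrrb* (317 TPM) lay between wt and KO. Its endoderm markers (33.0 TPM) were at the KO level and its fibroblast markers (120 TPM) below it. When the edgeR fit counted the control as wt, no member was called at D0 and none had an unadjusted p under 0.05 (*Klf4* 0.93, FDR 0.499), and *Klf2* was the 1 member called at D15. With the control in place of wt no member was called on either day, though 2 at D0 and 5 at D15 had an unadjusted p under 0.05, and *Klf4* at D0 had 0.12 (FDR 0.894) and *Klf2* at D15 had 1.14 (FDR 0.113). Here the lone control is assumed to vary like the other groups. At D0 the control thus differed from wt in *Klf4* and *Dppa3* in the way the KO libraries did, and the deletion cannot be told apart there from whatever else the edited lines share. The name of the control's deposited data also differs from its label, and which is right was not tested.

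In E8 cells at D7 most members were lower in KO than in wt, the opposite of *Tsix*-stop cells at D15. The E8 labels say stem cells and do not name EBs. At D7 *Nanog* was at 268 and 253 TPM in KO against 675 and 680 TPM in wt, *Klf2* at 85.9 and 87.4 TPM against 228 and 212 TPM, and *Dppa3* at 50.7 and 49.7 TPM against 129.7 and 130.3 TPM. *Zfp42* was at 211 and 206 TPM in KO and 432 and 421 TPM in wt, and *Prdm14* at 19.7 and 18.0 TPM in KO and 39.7 and 38.4 TPM in wt. In each of these genes the 4 libraries formed 2 tight pairs with KO below wt. limma on log2(TPM + 1), with the same thresholds, called these 5 of 10 members lower: *Nanog* (-1.38 ± 0.04, SE, FDR 6.42e-08), *Dppa3* (-1.36), *Klf2* (-1.33), *Zfp42* (-1.03) and *Prdm14* (-1.01 ± 0.06, FDR 1.73e-06). Of 12452 genes tested 6.18% were called lower and 11.4% higher, and the median of all genes was 0.10, so that each of these values was lower by that much relative to the typical gene. *Esrrb* (208 and 204 TPM in KO, 409 and 394 TPM in wt) stood just inside 2-fold at -0.96, and was called (-1.18) when the libraries were set to the same median. *Klf5* (-0.44), *Klf4* (-0.31) and *Tfcp2l1* (-0.23) passed the FDR under 2-fold. *Tbx3* was at 0.07 (FDR 0.259), and at -0.14 with the same median in each library. The call of *Prdm14* was lost without wt D7 replicate 1 or KO D7 replicate 2.

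At D15 no member was called in E8 by limma, although 8 of 10 passed an unadjusted p under 0.05, where 7.67% of all genes were called higher and 3.08% lower. *Nanog* was at 373 and 372 TPM in KO against 638 and 667 TPM in wt (-0.81), and *Klf2* at 130.2 and 131 TPM against 237 and 253 TPM (-0.90). At the FDR alone 7 of 10 members were lower in KO, where 31.0% of all genes were, and *Tfcp2l1* was higher (0.30), at 113 and 115 TPM in KO against 90.3 and 94.1 TPM in wt. *Dppa3* (-0.05, FDR 0.156) and *Klf5* (0.03, FDR 0.641) did not pass. Setting the libraries to the same median put *Klf2* past 2-fold (-1.06) and *Klf5* at -0.13.

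Between D7 and D15 the naive factors of E8 wt cells changed by less than 2-fold. No member was called by limma, 8 of 10 had an unadjusted p under 0.05, and of all genes only 0.586% were called higher and 0.819% lower. *Dppa3*, at 129.7 and 130.3 TPM at D7 and 66.9 and 65.8 TPM at D15, came nearest with -0.96, and *Tbx3* went the other way (0.87), from 50.5 and 47.9 TPM to 85.7 and 95.8 TPM. In E8 KO cells all 10 values were positive and none was called, though 9 of 10 passed the FDR, where 36.3% of all genes did so on the higher side. Called at 2-fold were 3.41% of genes higher and 2.70% lower. *Tfcp2l1* came nearest at 0.94, from 60.7 and 57.3 TPM to 113 and 115 TPM. In the interaction *Dppa3* was the 1 member called (1.30 ± 0.04, FDR 1.86e-06), since it lost its level between D7 and D15 in wt and not in KO. Of all genes 3.89% were called higher and 3.36% lower there. All of the other 9 members passed the FDR under 2-fold, 7 of them with positive values and *Klf4* (-0.26) and *Tbx3* (-0.46) with negative ones.

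Endoderm markers, and most fibroblast markers tested, moved in E8 KO in the opposite sense to *Tsix*-stop KO at D15, while other lists were mixed. As in *Tsix*-stop at D15, cardiac markers were lower in E8 KO at D7 (10.0 to 10.7 TPM against 22.7 to 24.3 TPM in wt). Germ cell markers were higher in E8 KO at D15 (125 to 128 TPM against 102 to 105 TPM), also as there. On the other E8 day both went the other way. Epithelial sums were higher in E8 KO on both days and lower in *Tsix*-stop KO at D15. Endothelial sums were lower in E8 KO at D7 and overlapped in *Tsix*-stop at D15. The 7 endoderm markers, all called higher in KO on both days, summed to 1079 and 1073 TPM in KO at D7 and to 239.6 and 240.1 TPM in KO at D15. The fibroblast markers stayed low in KO, at 41.4 to 52.2 TPM. Of the 6 tested, 4 were called higher and 1 lower at D7, and 5 higher and 1 lower at D15. The core factors *Pou5f1* and *Sox2* together were lower in KO, with 1038 and 1044 TPM against 2110 and 2206 TPM at D7 and 1343 and 1346 TPM against 2292 and 2493 TPM at D15. The part of the endoderm in the lower level of the naive factors was not tested. At D15, a day that the labels give for both lines, the libraries of KO and wt lay apart in opposite directions in the 2 lines for 6 members, *Nanog*, *Klf2*, *Esrrb*, *Zfp42*, *Prdm14* and *Dppa3*. *Tfcp2l1* lay higher in KO and *Tbx3* lower in KO in both lines. The tables of the lines were normalized separately and the difference between the lines was not tested. Line, strain, kind of deletion and number of clones differ together between them and cannot be told apart.

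**Figure D4:**
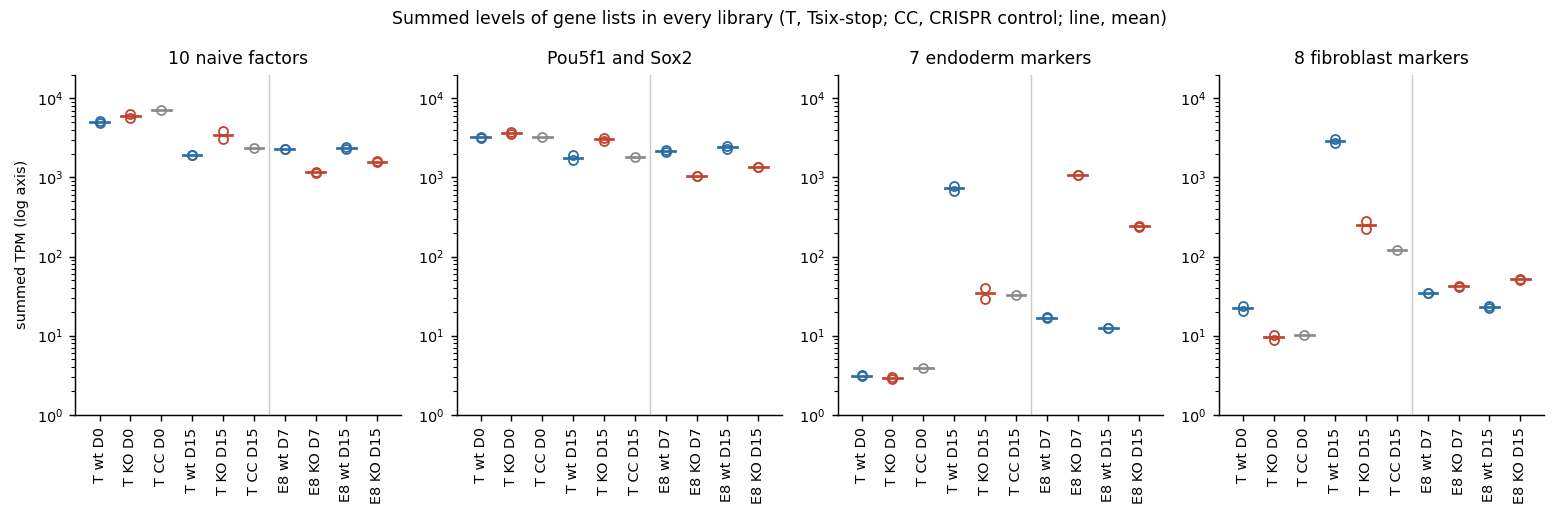
Summed TPM (log axis) of the 10 members, of *Pou5f1* and *Sox2*, of 7 endoderm markers and of 8 fibroblast markers in every library, colored as wt (blue), KO (red) and CRISPR control (grey). The groups with the most endoderm RNA in each line, *Tsix*-stop wt at D15 and E8 KO at D7, have the lowest sums of naive factors for their line and day. The CRISPR control at D15 has endoderm at the KO level (33.0 TPM). Its naive sum (2340 TPM) lies nearer to wt (1910 to 1929 TPM) than to KO (3066 to 3882 TPM).

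The rest of the pathway was read from lists written from general knowledge. Of 11 genes of the LIF and STAT3 pathway none was called by edgeR between KO and wt in *Tsix*-stop cells at D0 or D15, though 2 and 7 passed the FDR under 2-fold. In E8 KO cells 4 were called higher and 1 lower at D7 and 3 higher at D15. The higher ones were led by *Stat3* (2.02) and the kinase gene *Jak2* (1.89) at D7 and by the feedback inhibitor *Socs3* (2.01) at D15. At D7 and D15 the STAT3 targets *Klf4* (-0.31 and -0.57) and *Tfcp2l1* (-0.23 and 0.30) passed the FDR under 2-fold. A link between them and the pathway genes was not tested. Of 7 genes of the WNT and TCF7L1 arm, 1 was called higher in *Tsix*-stop KO at D15 (edgeR) and 2 in E8 KO at D15 (limma). None was called in *Tsix*-stop at D0, where 3 passed the FDR alone, or in E8 at D7, where 7 did. Of 15 other genes of the naive state 10 were called lower from D0 to D15 in *Tsix*-stop wt, led by *Tdh* (-2.30), the threonine dehydrogenase of ES cells, and *L1td1* (-2.26). In *Tsix*-stop KO 2 were lower and 2 higher over the same days. Against wt, 5 of the 15 were called higher in KO at D15, among them *Gbx2* (1.96), a STAT3 target, and 1 at D0, *Gbx2* again (1.42). In E8 KO 6 of the 15 were lower at D7, led by *Tcl1* (-2.41), an AKT cofactor, and *Dppa5a* (-1.80), and 6 at D15, with *Tcl1* (-1.53) and *Fgf4* (-1.38) first. Of 9 genes of the formative and primed state, which follow the naive one, 2 were higher and 2 lower in *Tsix*-stop KO at D15, with *Fgf15* (2.52) and *Zic2* (-1.11) at the ends. Counts such as these are to be read beside the shares of all genes given above.

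*Tsix*-stop cells carry a strain-129 and a *cast* copy of every member, so that reads with SNPs show which copy was expressed. The share of reads from the strain-129 copy was near balance and steady for *Zfp42* (48.1% to 52.0% over the 10 libraries) and *Tfcp2l1* (55.0% to 60.8%). It lay below balance for *Klf4* (35.7% to 41.7%). *Klf2*, with few reads (151 to 385 a library), was at 39.2% and 42.2% in wt at D0 and at 47.0% to 56.1% in the other 8 libraries, and the genes around it had medians of 41.5% and 41.1% in wt at D0 and 46.7% to 51.3% in the others. *Tbx3* ranged from 55.4% to 61.8%. *Klf5* moved with the day, from 49.96% to 54.2% in the 5 libraries at D0 to 40.5% to 46.9% in the 5 at D15, without overlap, while the medians of genes within 5 Mb stayed at 48.4% to 52.7%. The 95% Wilson intervals given with shares cover counting error only.

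*Prdm14* was expressed mostly from the *cast* copy, and more so in KO EBs. Its strain-129 share was 20.6% and 19.2% in wt at D0, 21.1% and 19.0% in KO at D0, and 21.3% and 23.2% in wt at D15. In KO at D15 it was 8.35% (7.43% to 9.38%) and 10.6% (9.39% to 11.9%), and in the CRISPR control 25.9% at D0 and 11.8% at D15. The wt and KO libraries at D15 thus did not overlap and the control was with KO, while the genes within 5 Mb had median strain-129 shares of 50.3% to 55.0% in all libraries. With 2 libraries against 2 an exact permutation test cannot give a two-sided p below 0.333, so none was made.

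*Esrrb* and its surroundings on chromosome 12 differed together between KO and wt at D0, and less closely so at D15. Its strain-129 share was 35.0% and 34.4% in wt at D0 against 58.3% and 51.6% in KO, and 57 to 67 genes within 5 Mb had medians of 36.6% and 35.5% against 59.2% and 53.5%. By D15 the shares of *Esrrb* were closer, 46.8% and 45.5% in wt against 52.4% and 53.6% in KO, with medians around it of 40.0% and 40.8% in wt and 55.3% and 56.1% in KO. The CRISPR control was at 38.2% at D0 and 31.1% at D15. The allele balance of the whole region therefore differed between KO and wt, and at D0 what is particular to *Esrrb* cannot be told apart from it. In wt at D15 the intervals of *Esrrb* (45.3% to 48.3% and 44.0% to 47.1%) lay above the medians of the region. In the control at D15 its interval (29.9% to 32.3%) lay below the median of 35.9%.

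*Nanog* and *Dppa3* share a region of chromosome 6 whose median strain-129 share was 43.7% to 56.7% in wt and KO but 65.7% and 66.5% in the CRISPR control at D0 and D15. *Nanog* stayed on the *cast* side throughout, at 22.6% and 24.1% in wt at D15, 32.6% and 36.6% in KO at D15 and 43.5% in the control. *Dppa3* had 32.6% and 30.04% in wt and 27.5% and 22.9% in KO at D0. At D15, when its level was higher in KO, its strain-129 share was 44.3% and 48.2% in KO against 31.6% and 38.4% in wt, and 68.2% (66.4% to 70.03%) in the control, the highest of any member.

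**Figure D5:**
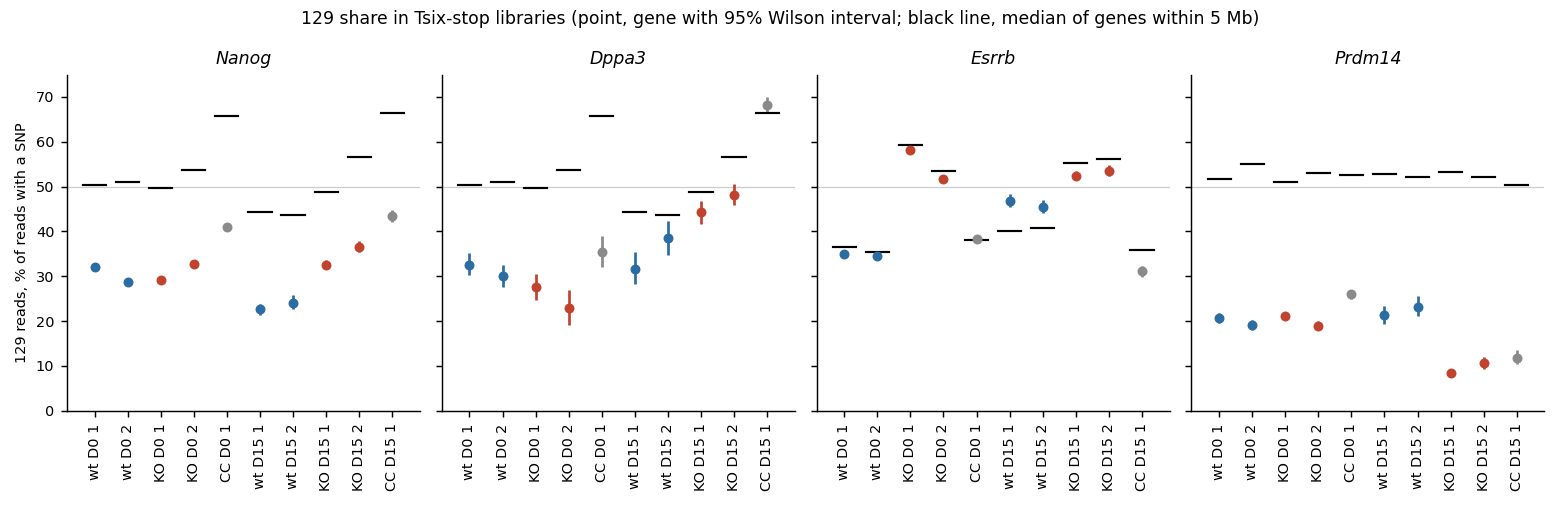
Share of strain-129 reads among reads with a SNP for *Nanog*, *Dppa3*, *Esrrb* and *Prdm14* in the 10 *Tsix*-stop libraries, as points with 95% Wilson intervals (blue wt, red KO, grey CRISPR control), and the median share of genes within 5 Mb as black lines. *Prdm14* drops to 8.35% and 10.6% in KO at D15 while its surroundings stay near 50%. *Esrrb* lies close to its surroundings at D0 and above them in wt at D15. *Nanog* lies below its surroundings in every library.

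The genome used for counting mattered for 3 members. In *Tsix*-stop libraries the count on the *cast* genome was 1.49 to 1.61 times the count on the strain-129 genome for *Nanog*, 0.78 to 0.83 times for *Zfp42* and 0.99 to 1.41 times for *Dppa3*, and between 0.99 and 1.05 times for the other 7. Of 12879 genes with a mean of at least 100 counts 1.11% had a ratio of 1.5 or more. In E8 the ratios of all members were 0.97 to 1.11. Levels of *Nanog*, *Zfp42* and *Dppa3* relative to other genes, and their strain-129 shares, are therefore uncertain in *Tsix*-stop. Whether reads shared with near-identical copies have a part in this was not tested. For *Zfp42* and *Dppa3* the log2 fold changes of KO over wt at D15 were 1.00 and 1.34 on the *cast* count, against 1.03 and 1.43 on the strain-129 count.

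The members were mostly positively correlated across libraries, and in *Tsix*-stop *Dppa3* stood apart. As a description over the 10 *Tsix*-stop libraries, which share days and genotypes, the 36 pairs without *Dppa3* had Pearson correlations of log2 CPM of 0.50 to 0.98 with a median of 0.85. The 9 pairs with *Dppa3* lay between -0.68 and 0.08. In E8, over 8 libraries of log2 TPM, the pairs without *Dppa3* ranged from 0.09 (*Tfcp2l1* and *Zfp42*) to 1.00 with a median of 0.79. Those with *Dppa3* ranged from -0.34 (*Tbx3*) to 0.78 (*Zfp42*) with a median of 0.58, and *Nanog* and *Dppa3* had 0.76. Genes outside the list with the pattern most like a member were sought over the 10 *Tsix*-stop libraries only, CRISPR controls included. The first 2 by Pearson correlation among the genes tested were *Psmd1* and *Supt16* for *Nanog* (both 0.99), *Mdga1* (0.99) and *Strip2* (0.98) for *Klf4*, and *Tpgs2* (1.00) and *Ilf2* (0.99) for *Zfp42*. For *Klf2* they were *Atmin* (0.99) and *1700029P11Rik* (0.98), and for *Esrrb* *2900011O08Rik* and *Mreg* (both 0.99). *Dppa3* had the loosest companions, *Ehhadh* and *Lck* (both 0.93).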

How the data were processed

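RNA-seq values of 10 *Tsix*-stop and 8 E8 libraries were grouped by line, genotype and day in the labels. TruSeq single-end reads were mapped to mm10 (TopHat v2.0.14 in the methods, and Bowtie2 2.4.5 and TopHat2 2.1.1 in the submitters' processing notes); annotation and strand of counting are not given in the sources used here. For *Tsix*-stop the authors deposited expected counts on the 129 genome, on the *cast* genome and on either, and numbers of SNP reads per allele, without normalization; 7.10% of the diploid values were not whole, and all were rounded. For E8 the authors deposited TPM only, so depth is unknown there; 537 rows of repeated symbols were summed. Column meanings were read from their names and relations.

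The diploid level was the 129 count (*Tsix*-stop) or the BL6 TPM (E8). *Tsix*-stop TPM was computed here from exon lengths in GENCODE vM21 (23310 of 24346 symbols matched), so its TPM and that of E8 are not on 1 scale. One edgeR 4.0.16 fit took the counts of 8 libraries, 4 wt and 4 KO (quasi-likelihood, TMM factors 0.934 to 1.07 over all genes, 2.5 CPM in 2 libraries), and E8 values with limma 3.58.1 on log2(TPM + 1) (2.5 TPM in 2 libraries), in R 4.3.3. That scale understates changes of low genes. FDR is Benjamini-Hochberg over all genes tested. DESeq2 1.42.0, other filters, genomes, scalings and left-out libraries were alternatives. Both fits were tested on simulated data. Shares of SNP reads are given with 95% Wilson intervals, beside the median of genes within 5 Mb that had at least 20 SNP reads. The members, gene lists and tests were chosen with earlier results of these data known. All 10 members are described; of other lists, counts and at most the 2 genes called with the largest change each way per comparison are named.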

Additional observations from a re-analysis of the deposited data

Results flagged for a closer look

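In *Tsix*-stop cells the effect of KO differed between D0 and D15, by the test of the interaction in edgeR, for *Dppa3* (2.56 on the log2 scale), *Klf2* (1.44), *Zfp42* (1.34) and *Klf4* (-1.38). With the CRISPR control added to wt the interactions of *Dppa3* and *Klf4* were not called. In E8 cells the effect of KO differed between D7 and D15 for *Dppa3* (1.30, limma). At D15 all KO libraries lay on opposite sides of the wt libraries in the 2 lines for 6 members, and the difference between the lines was not tested. The log2 fold changes were 0.88 in *Tsix*-stop and -0.81 in E8 for *Nanog*, 1.18 and -0.90 for *Klf2*, 0.98 and -0.65 for *Esrrb*, 1.03 and -0.70 for *Zfp42*, 0.89 and -0.61 for *Prdm14*, and 1.43 and -0.055 for *Dppa3*, the last of which did not pass the test in E8. Groups of 1 or 2 libraries were too small to be screened for a library that stands apart.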

How the results depend on the processing

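Of 1700 refitted values of single members, 1620 kept their direction and their side of the threshold, 32 lost and 16 gained a call, and 32 changed sign. Apart from fits that left out a library, counts of members called that moved by over 1.5 times were those with no minimum fold (8 in *Tsix*-stop at D15 and 7 in the interaction, and in E8 9 at D7, 8 at D15, 8 over days in wt, 9 over days in KO and 10 in the interaction), with the same median in each E8 library (1 at D15), and those that used the CRISPR control. When it joined the wt group 0 members were called at D0, 1 at D15 and 2 in the interaction, and in place of wt 0, 0 and 0. The control in place of wt, crossed numbers and E8 values on the *cast* genome were chosen after seeing the data, and the cause of these moves was not tested. DESeq2, the other filters, the *cast* and either-genome values and the other pseudocount kept every count of members called within 1.5 times.

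The sign changed for *Nanog* at D0 with the control added (-0.22) or in place (-0.72), and in place at D0 for *Klf2* (0.35), *Klf5* (-0.41), *Tfcp2l1* (-0.17), *Tbx3* (-0.29) and *Prdm14* (-0.24), at D15 for *Tbx3* (0.74) and *Dppa3* (-0.69), and in the interaction for *Klf4* (1.40), *Tbx3* (1.03) and *Dppa3* (-0.50). *Dppa3* from D0 to D15 in wt became 0.19 with the control added and 1.95 with it in place. *Klf2* over days in KO, near 0, took values of -0.037 with no filter, -0.0080 on the *cast* count, -0.010 on either genome, -0.0082 with the control added and -0.0039 with crossed numbers. With the same median in each library *Tbx3* in E8 at D7 was -0.14 and *Klf5* at D15 -0.13.

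Leaving out 1 library at a time, with the lone library of its group assumed to vary like the others, gave 1 to 2 members called at D0 (1 without either wt library or without KO replicate 2), 2 to 6 at D15 (6 without KO replicate 2), 8 to 9 over days in wt, 4 to 7 over days in KO and 4 to 5 in the interaction of *Tsix*-stop, and in E8 4 to 5 at D7, 0 in every fit at D15 and over days, and 1 in the interaction. Signs changed within ranges of -0.065 to 0.28 for *Nanog* and -0.15 to 0.30 for *Esrrb* at D0, -0.12 to 0.53 for *Klf4* at D15, -0.13 to 0.15 for *Klf2* over days in KO, -0.052 to 0.49 for *Tfcp2l1* in the interaction and -0.041 to 0.11 for *Klf5* in E8 at D15.

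Replicate numbers are shared by wt and KO in the labels, but deviations of same-numbered libraries correlated by only -0.16 to 0.20 across genes. The highest value, 0.20, was that between KO at D0 and KO at D15. There a shared number may stand for the same clone, since *Kdm6a* was higher in KO replicate 1 than in replicate 2 on both days. The labels do not say so, and the main fits took the libraries as unpaired. With the replicate number as a block, members called were 2 at D0, 3 at D15, 9 and 6 over days and 4 in the interaction of *Tsix*-stop, and 5, 0, 0, 0 and 1 in E8, and over all genes at D15 503 were called higher and 1502 lower. With the wt D15 numbers crossed the latter were 500 and 1504.

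TPM of E8 keeps no depth, so counting error cannot be given there. In *Tsix*-stop the members had many reads, and the limit was 2 libraries a group, 1 for the control.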
